A study of Mus musculus with 4 samples.

Results

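Beta-catenin and the TCF/LEF factors it works with were read in whole skin of mouse embryos at E14.5, the age at which the first hair follicles form. The members were every probe set of the array whose annotated gene symbol was Ctnnb1, Lef1, Tcf7, Tcf7l1 or Tcf7l2. They were 11 of 45037 probe sets, 3 for Ctnnb1, 2 for Lef1, 2 for Tcf7l1 and 4 for Tcf7l2. No probe set carries the symbol Tcf7 in the annotation used here, so Tcf7 was not analysed here and 4 genes remain. The samples were 2 control embryos and 2 mutant littermates, 1 embryo per array. The mutants carried KRT14-Cre, a recombinase driven by a keratin promoter of basal keratinocytes, and 1 Ctnnb1(Ex3)fl allele beside a normal one (KRT14-Cre Ctnnb1(Ex3)fl/+). The genotype of the controls is given only as control. Cre removes the exon that encodes the degradation signal of beta-catenin, so the keratinocytes make a stabilised protein, while the dermis, which is part of the same RNA, is not a target of this Cre.

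Beta-catenin, the product of Ctnnb1, is both a linker of cadherins to the cytoskeleton and the effector of canonical Wnt signalling. Without a Wnt signal a destruction complex marks it for degradation; with one it accumulates and binds TCF/LEF proteins on DNA. Those proteins recognise the same short DNA motif and repress their targets together with Groucho/TLE co-repressors until beta-catenin replaces these. In skin, Lef1 is known from hair placodes, hair matrix and the underlying dermis, and Tcf7l1 and Tcf7l2 from epidermal progenitor cells, where Tcf7l1 acts mainly as a repressor. The mutation acts on the stability of the protein, and the arrays read RNA.

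The promoters of the members are shown because TCF/LEF factors can act on their own genes. RefSeq gives 11 windows of 300 bases for the 5 genes, with at least 1 window for each gene. A window holds 250 bases before a transcription start and 50 after it (build GRCm38.p6). Both strands were searched for the TCF/LEF core CTTTG followed by a pair of letters that are each A or T, overlapping matches included. Of all 32851 windows in the table, 5544 (16.9%) held at least 1 match, and of the 11 windows here 2 did. The first window below is that of Tcf7l1, the gene with the only probe set that passed the threshold given below. It lies at chr6:72788996-72789295 on the minus strand and held no match. The Lef1 window with a match, chr3:131156044-131156343 on the plus strand, belongs to a start inside the gene, and so does the Tcf7l2 window with a match, chr19:55895071-55895370 on the plus strand. Capitals mark the matched letters, 5′ to 3′ on the strand of the gene. A match is a string of letters and no evidence of binding.
Tcf7l1: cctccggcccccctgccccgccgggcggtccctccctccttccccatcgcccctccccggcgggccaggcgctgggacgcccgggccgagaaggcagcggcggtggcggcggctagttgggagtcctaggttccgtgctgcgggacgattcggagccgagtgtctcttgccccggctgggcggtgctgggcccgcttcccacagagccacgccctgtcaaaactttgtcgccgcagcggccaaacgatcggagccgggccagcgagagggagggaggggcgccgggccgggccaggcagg
Lef1: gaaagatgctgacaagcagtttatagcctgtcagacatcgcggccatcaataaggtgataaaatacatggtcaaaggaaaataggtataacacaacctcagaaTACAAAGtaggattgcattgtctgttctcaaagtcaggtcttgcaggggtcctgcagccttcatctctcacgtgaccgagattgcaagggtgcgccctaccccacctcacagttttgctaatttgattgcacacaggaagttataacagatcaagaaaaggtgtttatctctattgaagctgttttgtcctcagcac
Tcf7l2: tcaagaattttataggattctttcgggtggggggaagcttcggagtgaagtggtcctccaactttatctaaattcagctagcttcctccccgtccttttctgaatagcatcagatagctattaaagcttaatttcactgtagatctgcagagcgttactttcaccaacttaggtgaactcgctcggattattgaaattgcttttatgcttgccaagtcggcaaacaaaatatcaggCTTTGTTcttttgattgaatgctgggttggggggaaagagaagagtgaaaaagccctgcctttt

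The value of a probe set is a MAS5 signal, in arbitrary units on a linear scale, so levels are compared between arrays and never between probe sets. The array medians lay between 27.7 and 31.95, and log2 signals correlated across the tested probe sets with r of 0.979 and 0.981 within the groups and of 0.923 to 0.941 between them, probe sets not being independent replicates. Changes are log2 fold changes of signal plus an offset of 7.71, mutant minus control, tested with limma over all 22519 probe sets whose mean signal reached 31.1. The threshold was a Benjamini-Hochberg adjusted p of 0.05. All 11 member probe sets were tested. Of all tested probe sets 7.03% passed. With 2 arrays per group a two-sided exact permutation test of 1 value cannot give a p under 0.333. Every change is thus a change within the total signal of an array: RNA spikes added to the samples read lower in the mutants by 1.06 on the log2 scale (12 probe sets), and on a scale set by them every change would be higher by that amount and values between -1.06 and 0, such as the first Lef1 value below, would turn positive. How much spike RNA each sample was given is not stated in the labels.

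No Ctnnb1 probe set passed the threshold: 1 was close to the control level in mutant skin, and in 2 both mutants stood above both controls. Probe set 1420811_a_at read 6302 and 5335 in the controls and 6197 and 5773 in the mutants. Both mutant values lay between the controls. The means were 5819 ± 683 and 5985 ± 299.9 (SD, n = 2 per group), and the log2 fold change was 0.045, with a 95% interval of -0.25 to 0.34. Probe set 1450008_a_at read 2633 and 2532 in the controls and 3081 and 3123 in the mutants. Here both mutants stood above both controls, by a log2 fold change of 0.26 (SE 0.097, limma adjusted p = 0.171). Probe set 1430533_a_at read 1387 and 1196 in the controls and 1572 and 1652 in the mutants, again without overlap. Its log2 fold change was 0.32 (SE 0.11, limma adjusted p = 0.155). The intervals of the latter pair ran from 0.031 to 0.50 and from 0.051 to 0.59, so a 2-fold change lay outside the interval of each of the 3 Ctnnb1 probe sets. All carry the array maker's suffix for probes shared by several transcripts of 1 gene. Their place in the transcript, inside or outside the exon that Cre removes, was not determined, so they do not check the genotype.

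**Figure D1:**
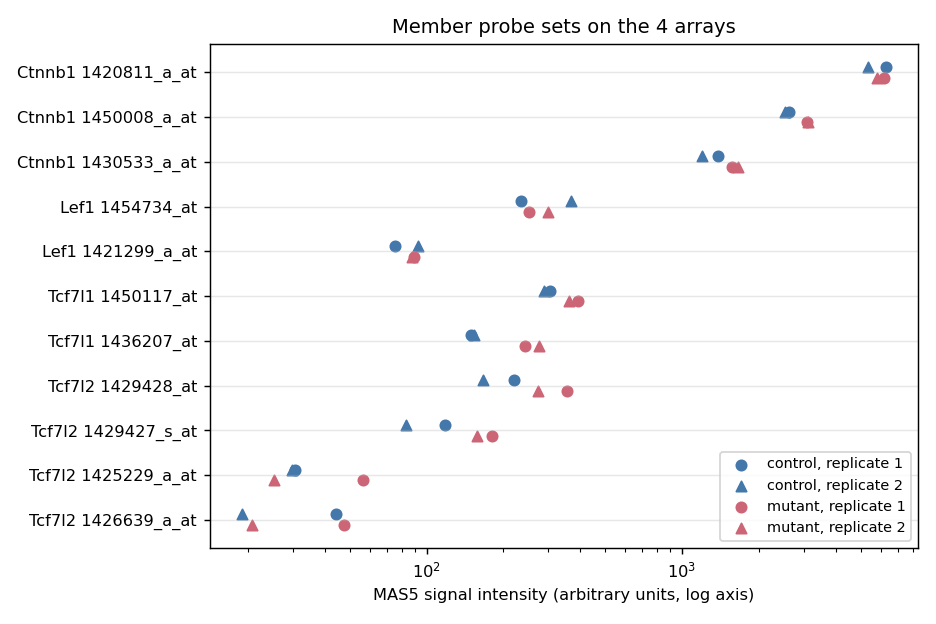
MAS5 signal intensity (log axis) of the 11 member probe sets, 1 row each, with controls in blue and mutants in red, circles for replicate 1 and triangles for replicate 2. In 6 rows both red points lie to the right of both blue points, the Tcf7l1 rows among them, and in the other 5, both Lef1 rows among them, the colours overlap.

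Lef1, whose product is the TCF/LEF factor most closely tied to hair follicle formation, did not pass on either probe set. Probe set 1454734_at read 234 and 367 in the controls and 251 and 297 in the mutants. The mutants lay inside the range of the controls, which differed from each other more than the groups did. The means were 300.5 ± 94.5 and 274 ± 32.5 (SD, n = 2 per group). The log2 fold change was -0.10 (SE 0.22, limma adjusted p = 0.841), with a 95% interval of -0.62 to 0.42. Probe set 1421299_a_at read 75 and 92.5 in the controls and 89.5 and 87.5 in the mutants, also within the controls. Its log2 fold change was 0.079 (SE 0.18, limma adjusted p = 0.842) and its interval -0.34 to 0.50. These intervals leave out a 2-fold change in either direction but not smaller ones.

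Tcf7l1 was the only one of the 4 genes with a probe set past the threshold. Probe set 1436207_at read 149 and 153 in the controls and 243 and 275 in the mutants. The groups were far apart beside the spread within each, with means of 151 ± 2.88 and 259 ± 22.8 (SD, n = 2 per group). It rose by 0.74 on the log2 scale (SE 0.13, limma adjusted p = 0.0241), with a 95% interval of 0.43 to 1.06. Probe set 1450117_at, the one of Tcf7l1 with the higher mean signal, read 304 and 288 in the controls and 392 and 361 in the mutants. Both mutants were above both controls here too, but the log2 fold change of 0.34 (SE 0.12, limma adjusted p = 0.145) did not pass. Its interval was 0.061 to 0.62, so the intervals of the 2 probe sets overlap. The call of 1436207_at was lost without mutant replicate 1 (log2 fold change 0.83, limma adjusted p = 0.0588) and without mutant replicate 2 (0.66, limma adjusted p = 0.143), where the fit takes the lone mutant to vary like the controls.

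Tcf7l2 had values above the controls on its 2 brighter probe sets, short of the threshold, and groups that overlapped on its 2 dim ones. Probe set 1429428_at read 219 and 166 in the controls and 355 and 273 in the mutants, with means of 193 ± 37.6 and 314 ± 58.4 (SD, n = 2 per group). The groups did not overlap, and the log2 fold change was 0.68 (SE 0.19, limma adjusted p = 0.0859), with an interval of 0.23 to 1.13. Probe set 1429427_s_at read 118 and 82.9 in the controls and 180.3 and 157 in the mutants. It gave much the same, a log2 fold change of 0.72 (SE 0.20, limma adjusted p = 0.0858). Both probe sets come from the same source transcript in the annotation and are not independent readings, and the suffix of the second marks probes that can match more than 1 gene. Without control replicate 1, which read higher on both, they passed (log2 fold changes 0.88 and 0.96, limma adjusted p = 0.0330 and 0.0216), where the fit takes the lone sample left in a group to vary like the other group. Without control replicate 2 the log2 fold changes were 0.49 and 0.48 (limma adjusted p = 0.201 and 0.185), and without mutant replicate 1 they were 0.50 and 0.62 (limma adjusted p = 0.327 and 0.309). Without mutant replicate 2 they were 0.87 and 0.82 (limma adjusted p = 0.0682 and 0.166).

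The dim Tcf7l2 probe sets lay just above the filter. Probe set 1425229_a_at read 30.6 and 29.7 in the controls and 56.3 and 25.2 in the mutants, so 1 mutant was above and 1 below both controls. Its control mean lay under 31.1, and it entered the test through the first mutant. Probe set 1426639_a_at read 44.4 and 18.9 in the controls and 47.5 and 20.8 in the mutants, where the first array of each group was more than 2-fold above the second. Their log2 fold changes were 0.28 (limma adjusted p = 0.681) and 0.091 (limma adjusted p = 0.930), with intervals that reached from -0.52 to 1.08 and from -0.93 to 1.11. Values this dim cannot show whether they follow the brighter probe sets.

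**Figure D2:**
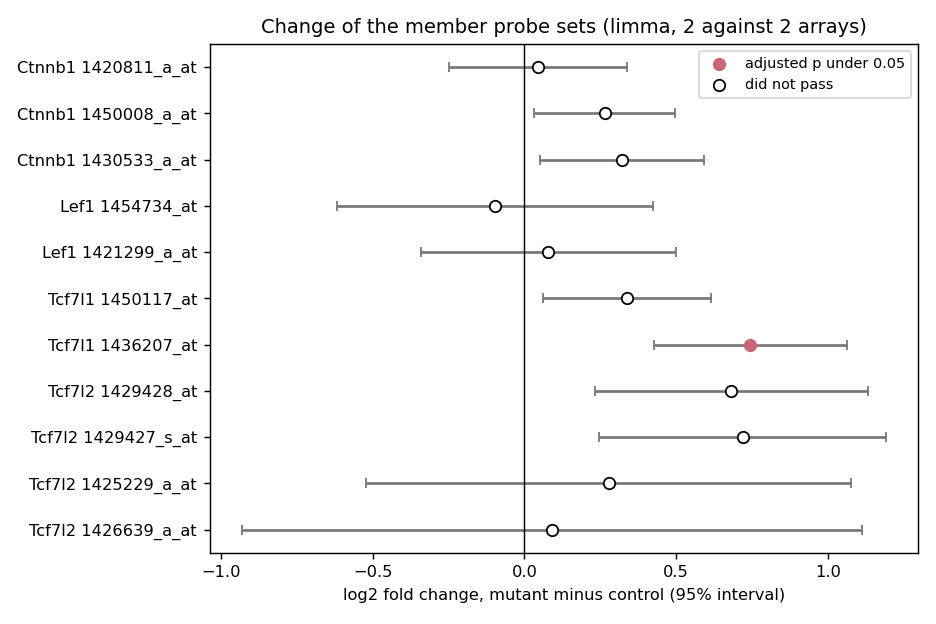
Log2 fold change, mutant minus control, of the 11 member probe sets from limma, with 95% intervals. The filled point is Tcf7l1 1436207_at at 0.74, the one probe set past an adjusted p of 0.05; open points did not pass, and those of Ctnnb1 and Lef1 run from -0.10 to 0.32.

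Over the members together, 1 of 11 probe sets passed as higher and 0 as lower, beside 4.10% of all tested probe sets as higher and 2.93% as lower. At an unadjusted limma p under 0.05, 6 of the 11 were higher and 0 lower, where by that measure 22.9% of all tested probe sets differed and 12.1% were higher. The same 6 were those with both mutants above both controls. Of all tested probe sets 54.3% had groups that did not overlap, 26.6% with the mutants above and 27.7% with the mutants below. The probe sets of a gene share their transcripts, so these counts rest on 4 genes. By rank, 94.6% and 84.0% of tested probe sets had a lower log2 fold change than Tcf7l1 1436207_at and 1450117_at. The figures were 93.7%, 94.3%, 80.4% and 63.6% for Tcf7l2 1429428_at, 1429427_s_at, 1425229_a_at and 1426639_a_at. They were 57.7%, 79.6% and 83.2% for Ctnnb1 1420811_a_at, 1450008_a_at and 1430533_a_at. For Lef1 they were 37.0% (1454734_at) and 62.2% (1421299_a_at). No member probe set is among the 170 of the authors' deposited table of changed probe sets, which was made from another summary of the arrays and asked for at least a 2-fold change.

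Leaving out each array in turn showed how far these values move with 1 embryo. Where both mutants stood above both controls, a value above 0 in each fit follows from that and is no further check. Likewise a change of sign follows where both mutants lay between the controls. Tcf7l1 and the brighter Tcf7l2 probe sets stayed above 0 in all 4 fits, from 0.28 to 0.40 for 1450117_at, 0.66 to 0.83 for 1436207_at, 0.49 to 0.88 for 1429428_at and 0.48 to 0.96 for 1429427_s_at. The 2 Ctnnb1 probe sets whose groups did not overlap also stayed above 0, between 0.24 and 0.29 for 1450008_a_at and between 0.22 and 0.43 for 1430533_a_at. Ctnnb1 1420811_a_at, both Lef1 probe sets and both dim Tcf7l2 probe sets changed sign in at least 1 fit. Lef1 1454734_at ran from -0.42 without control replicate 1 to 0.22 without control replicate 2.

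**Figure D3:**
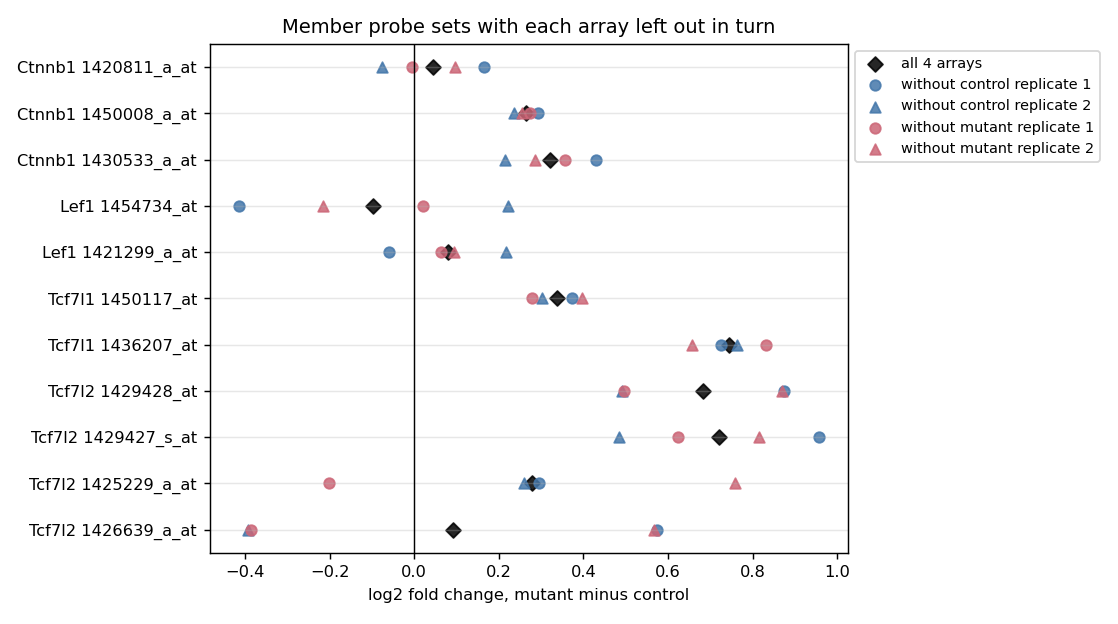
Log2 fold change, mutant minus control, of each member probe set with all 4 arrays (black diamonds) and with 1 array left out (blue without a control, red without a mutant; circles for replicate 1, triangles for replicate 2). The Tcf7l1 points all lie to the right of 0, while the Lef1 1454734_at points spread from -0.42 to 0.22.

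Whether the members changed by different amounts was asked of the 6 pairs of genes, each read by its probe set with the highest mean signal, from the log2 difference between the 2 genes on each array. Relative to Ctnnb1, Tcf7l2 stood higher in both mutants than in both controls, by 0.64 on the log2 scale. The Ctnnb1 minus Tcf7l2 difference was 4.796 and 4.94 in the controls and 4.10 and 4.37 in the mutants, a number that holds the probe sets' own brightness and is of use only between arrays. The Ctnnb1 minus Tcf7l1 difference also did not overlap between groups and was lower in the mutants by 0.29. For both, and for Tcf7l1 minus Tcf7l2 (-0.34), the exact two-sided permutation p was 0.333, the smallest this design allows, and 0.667 adjusted over the 6 pairs. The 3 pairs with Lef1 overlapped between the groups. With the mean over all tested probe sets of a gene, the Ctnnb1 minus Tcf7l2 difference shrank from -0.64 to -0.23 and Lef1 minus Tcf7l2 from -0.78 to -0.45, and Tcf7l1 minus Tcf7l2 turned to 0.099.

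The genes nearest to each member in profile were found among 11548 others by the Euclidean distance of log2 values centred on their mean over the 4 arrays. For Ctnnb1 they were Slc6a8, a creatine transporter, and Eef1b2, a translation elongation factor, at a distance of 0.020 each. For Tcf7l1 they were Ccdc8 (0.023) and Foxp1 (0.032), the latter a forkhead transcription factor. For Tcf7l2 they were Vasn (0.076), which encodes a membrane protein that binds TGF-beta, and Vgll4 (0.079), a cofactor of TEAD transcription factors. For Lef1 they were the interleukin receptor gene Il1r1 (0.063) and Cracr2b (0.069). With 4 arrays such neighbours are many: 1569 genes lay within 0.2 of Ctnnb1, 745 of Tcf7l1, 104 of Lef1 and 56 of Tcf7l2.

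Of the genes that control beta-catenin and of the factors that act with it in the nucleus 1 passed, each gene read by its probe set with the highest mean signal. By that reading 8.74% of 11549 tested genes passed, 4.96% higher and 3.78% lower, with a median log2 fold change of -0.021, and 25.8% had an unadjusted limma p under 0.05. Of the destruction complex, 13 of 14 genes were tested and 0 passed (limma, no member with an unadjusted p under 0.05), with a median of -0.022 and a range of -0.22 to 0.31. The widest values were those of the kinase gene Gsk3a, at 315 and 281 in controls and 400.0 and 345 in mutants (log2 fold change 0.31, limma adjusted p = 0.219), and of the scaffold gene Axin1 (-0.22, limma adjusted p = 0.442), whose second probe set had 0.043. Of 11 tested co-activator genes 0 passed, with a median of -0.11, and 3 were lower at an unadjusted limma p under 0.05. Tbl1xr1, an exchange factor of co-repressors and co-activators, and Carm1, an arginine methyltransferase, came nearest, at -0.48 (limma adjusted p = 0.0599) and -0.42 (limma adjusted p = 0.0802). The other tested probe sets of Tbl1xr1 did not follow, with log2 fold changes of 0.19, 0.093, 0.061 and -0.013.

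Among the co-repressors and nuclear inhibitors 1 of 12 tested genes rose and 0 fell, with a median of 0.069. At an unadjusted limma p under 0.05, 4 were higher, beside the 25.8% of all tested genes that differed by that measure. The gene that rose was Tle4, a Groucho/TLE co-repressor that TCF/LEF proteins recruit. Its probe set 1450853_at read 211 and 282 in the controls and 451 and 395 in the mutants, without overlap. It rose by 0.77 on the log2 scale (SE 0.17, limma adjusted p = 0.0420). Its second probe set, 1425650_at, rose by 0.95 (limma adjusted p = 0.0417), and the authors' deposited table lists that one with a ratio of 2.92. The call of 1450853_at was lost without control replicate 1 (limma adjusted p = 0.0598), mutant replicate 1 (0.143) or mutant replicate 2 (0.0619), and also without the filter on dim probe sets (0.0859) or the variance trend (0.0818). Of the 4 kinase genes that modify TCF/LEF proteins 0 passed and 1 had an unadjusted limma p under 0.05. It was Tnik, at 162 and 145 in controls and 93.6 and 106 in mutants (log2 fold change -0.58, limma adjusted p = 0.0786), and Hipk1 had -0.15 (limma adjusted p = 0.569).

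**Figure D4:**
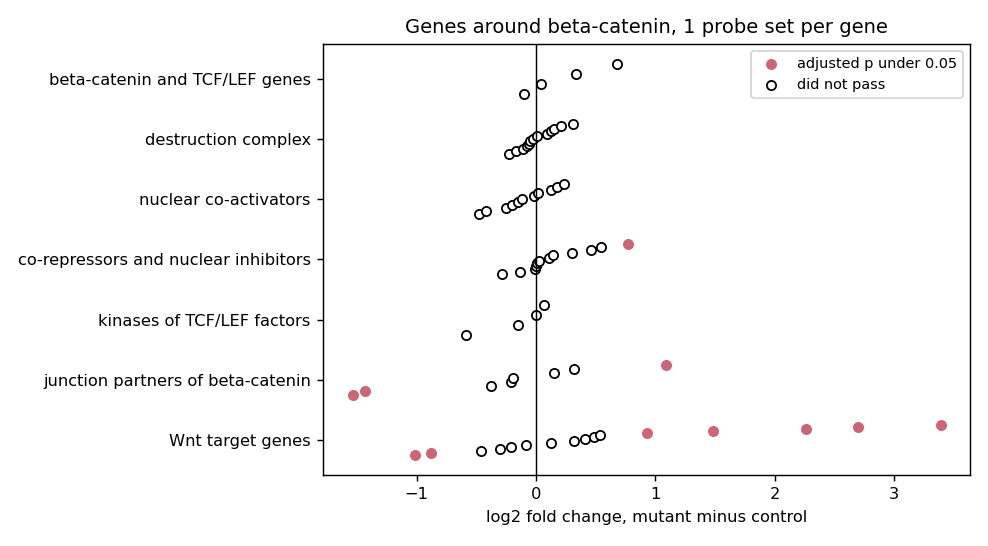
Log2 fold change, mutant minus control, of the genes of each list, 1 probe set per gene, with filled points for an adjusted p under 0.05. By this reading none of the 4 member genes is filled, none in the destruction complex and co-activator rows, and 1 among the co-repressors, Tle4 at 0.77.

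The partners of beta-catenin at cell junctions changed in both directions, with 1 of 8 tested genes rising and 2 falling (median -0.20). Of all tested genes 4.96% passed as higher and 3.78% as lower. Cdh1, the cadherin of epithelia, fell from 1078 and 1501 in the controls to 327 and 575 in the mutants (log2 fold change -1.54, limma adjusted p = 0.0233). Cdh2, the cadherin of mesenchyme and nerve, rose from 139 and 116 to 307 and 253 (log2 fold change 1.09, limma adjusted p = 0.0124). Ctnna2, an alpha-catenin best known from the nervous system, fell from 98.6 and 94.1 to 25.05 and 37.7 (log2 fold change -1.43, limma adjusted p = 0.0145), and has a ratio of 0.323 in the authors' deposited table. The call of Cdh1 was lost without control replicate 2 (limma adjusted p = 0.0571), the filter (0.0606) or the variance trend (0.0568), and that of Cdh2 without mutant replicate 1 (limma adjusted p = 0.0510). On the scale of the poly-A spikes neither Cdh1 (log2 fold change -0.48, limma adjusted p = 0.118) nor Ctnna2 (-0.37, limma adjusted p = 0.223) passed. Jup, whose product is the closest relative of beta-catenin at junctions, had a log2 fold change of -0.38 and did not pass (limma adjusted p = 0.216).

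Of 16 tested target genes of the pathway 5 rose and 2 fell, beside 4.96% and 3.78% of all tested genes, with a median of 0.36. At an unadjusted limma p under 0.05, 12 of them differed, some higher and some lower, beside 25.8% of all tested genes. The decoy receptor gene Bambi rose by 3.39 on the log2 scale, and the inhibitor genes Dkk1, Notum and Dkk4 by 2.70, 2.26 and 1.48. Dkk4 read 135 and 190.4 in the controls and 384 and 558 in the mutants (limma adjusted p = 0.0132). The fifth that rose was Lgr5 (log2 fold change 0.93) and those that fell were Nkd2 (-1.02) and Tnfrsf19 (-0.88), named after their values were seen. The feedback regulator Axin2 had 0.13 and did not pass (limma adjusted p = 0.693).

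Cell types in whole skin moved beside these values, and in bulk RNA fewer cells of a type and less RNA per cell cannot be told apart. A sum of signals over markers follows its brightest probe sets and is of use only between arrays. The counts below stand beside 4.96% of all tested genes that passed as higher and 3.78% as lower. Of all tested probe sets 27.7% had both mutants below both controls. Summed signals of 7 markers of basal keratinocytes, in which the promoter of Cre is active, were 10182 to 14423 in the controls and 5440 to 7135 in the mutants, with all 7 genes lower in both mutants and 2 of them past the threshold. Of 6 suprabasal keratinocyte markers 5 fell, with sums of 7732 to 11728 in the controls and 601 to 836 in the mutants. All 7 markers of hair matrix and shaft rose, from sums of 61.2 to 76.1 to sums of 7167 to 9158. The control mean of each of them lay under the filter at 31.1, so they entered the test through the mutants. Of 7 fibroblast markers 1 fell, and their sums were 32054 to 36717 and 26170.2 to 30110 (controls and mutants). Of 7 markers of the dermal condensate, a site of Lef1 expression, Foxd1, Trps1 and Bmp4 rose, with sums over the 7 of 1231 to 1271 and 2195 to 2276. The median of the list was 0.065, and Sox2 had a log2 fold change of -0.41 that did not pass (limma adjusted p = 0.272). Of 7 macrophage markers 4 rose, with sums of 2511 to 3236 and 4408 to 5102. Markers of T cells, which use Tcf7 and Lef1, had sums of 62.5 to 68.1 in the controls and 74.1 to 77.6 in the mutants over the 6 with a probe set. Of these only Cd8a, at 35.8 to 39.3 on the 4 arrays, was bright enough to be tested, and the defining markers Cd3d and Cd3e read between 0.534 and 4.52. Of 8 cartilage markers 1 rose, and they stood apart in mutant replicate 1, with a sum of 9769 against 774 in mutant replicate 2 and 204 to 347 in the controls. The control means of Col2a1, Acan, Matn1, Matn3, Comp and Hapln1 lay under the filter, so these markers entered the test through the mutants. Tcf7l2 1429428_at was also higher in that array than in the other mutant, and without it the log2 fold change was 0.50 (limma adjusted p = 0.327). Of 6 skeletal muscle markers 2 fell, of 6 endothelial markers 1 rose, and of 4 tested nerve and Schwann cell markers 1 rose and 1 fell. The nerve marker that rose, Tubb3, had a control mean of 23.2, under the filter, and entered the test through the mutants. The part of these shifts in the values of the members was not tested.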

How the data were processed

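Total RNA of dissected skin, epidermis and dermis together, of 2 control and 2 mutant embryos was hybridised to Affymetrix mouse 430 2.0 arrays. The deposited values are signal intensities, 1 per probe set and array, which the authors made with GCOS and MAS5, per the submitters' processing notes (no version given); the scaling target is not given in the sources used here, and the values were not normalized again. The fold column of the authors' deposited table is a ratio of mutant over control, and per the file headers it was made from GCRMA values and filtered on p and on fold; its 4 per-sample columns were not used.

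Probe sets were named from the platform's annotation, with symbols updated by gene identifier (GRCm38.p6): of 45037, 34945 have 1 gene, 932 several and 9160 are unnamed here, besides 64 array controls. A gene was represented by its probe set with the highest mean signal. Signals plus the percentile 25 of all values (7.71) were put on the log2 scale, which shrinks changes of dim probe sets. Probe sets with a mean signal of at least 31.1, the median, were tested with limma 3.58.1 in R 4.3.3 (a linear model per probe set, moderated with a variance trend), with p adjusted by Benjamini-Hochberg over all 22519. Means and SDs are of linear signals. The labels say that the embryos are separate, and the number of arrays limits the precision.

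Beside the members, the text names up to 4 called genes per pathway list with the largest change, or 2 where none was called, and the 2 nearest profiles per member; Lgr5, Nkd2, Tnfrsf19, Axin2 and Jup were named besides. The members, lists, rules and alternatives were chosen with earlier results of these data known.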

Additional observations from a re-analysis of the deposited data

How the results depend on the processing

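The direction of Tcf7l1 1436207_at held in every alternative run, and its call ended only without 1 of the mutants and under the methods' t-test. In the runs without 1 array or with another offset that direction follows from its groups not overlapping. The filters, variance trends, replicate block and t-test leave the log2 fold change at 0.74, and the scale of the poly-A spikes only raises it. None of these runs is thus a check of the direction. Quantile normalization could have turned it and gave 0.72. The count of called probe sets, 1583 of all and 1 of the members, was 880 of all without the filter and 828 with a filter at the percentile 75. Leaving out 1 array gave 982 to 2171 of all, 0 to 3 of the members and 6 to 10 of the pathway genes, of which 11 were called in the main fit and 6 without the filter. The replicate numbers of the labels were tried as a pairing: same-numbered deviations from the group means correlated with r = 0.155, which with 2 pairs does not show a pairing. With the replicate block 2443 of all and 3 of the member probe sets were called, among them Tcf7l2 1429428_at (log2 fold change 0.68, limma adjusted p = 0.0198) and 1429427_s_at (limma adjusted p = 0.0314). The methods' t-test, chosen after seeing the data, was run on the log2 values of the same 22519 probe sets, with a separate variance per group. The authors' table was made from GCRMA values, so these counts are not those of their own test. The run gave 296 probe sets at an unadjusted p under 0.01, 95 of them with the at least 2-fold change that the authors' header also asks for. After Benjamini-Hochberg adjustment 0 passed, with 0 of the members by either count and 0 of the pathway genes after adjustment.

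On the scale of the poly-A spikes the counts were 20717 of all, 11 of the members and 56 of the pathway genes. The log2 fold changes on that scale were 1.10 for Ctnnb1 1420811_a_at, 1.40 for Tcf7l1 1450117_at and 1.74 for Tcf7l2 1429428_at, all past the threshold. Signs turned on it for Lef1 1454734_at (0.96), Axin1 (0.83), Tbl1xr1 (0.58), Carm1 (0.64), Tnik (0.47) and Hipk1 (0.91), and the calls of Cdh1 (-0.48) and Ctnna2 (-0.37) ended.

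Over the fits without 1 array Ctnnb1 1420811_a_at ran from -0.075 to 0.16, Lef1 1454734_at from -0.42 to 0.22, Lef1 1421299_a_at from -0.060 to 0.22, Tcf7l2 1425229_a_at from -0.20 to 0.76 and 1426639_a_at from -0.39 to 0.57, so each changed sign. Over the same fits Tcf7l2 1429428_at ran from 0.49 to 0.88 and Tcf7l1 1450117_at from 0.28 to 0.40. The Tcf7l1 minus Tcf7l2 difference was 0.099 with the mean over probe sets. Where no value shows it, the cause was not tested. Dim probe sets, near the filter, limit what Tcf7l2 can show.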
